A study of Beta vulgaris with 9 samples.

Results

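Hydrogen peroxide formed in leaves is removed by peroxidases, and the electrons for that step come through thioredoxins, ascorbate and glutathione. The genes of this system were followed in sugar beet leaves under alkaline stress. They are the 73 genes, of 24351 in the table, whose product name holds peroxidase, peroxiredoxin, thioredoxin, glutaredoxin, glutathione or ascorbate. No gene matched the words catalase or germin, which were also searched. A product name was given for 6515 of the genes, so redox genes without a name are not among the 73. LOC names are the gene identifiers of the table.

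Seedlings of the sugar beet cultivar KWS0143 were grown in Hoagland solution, a standard nutrient solution, and 75 mM of mixed sodium carbonates (Na2CO3 with NaHCO3) was added to the treated plants. Leaves were taken at day 0 (C, control), after 3 days of treatment (ST, short-term) and after 7 days (LT, long-term), in triplicate, at one leaf position throughout. Control leaves came from day 0 only, so treatment cannot be told apart from leaf age and day of harvest. RNA depleted of ribosomal RNA was sequenced from these 9 libraries, and the values are FPKM (a fragment count divided by transcript length and by library size), summed over the transcripts of a gene.

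In a chloroplast, light-driven electron flow reduces ferredoxin, and ferredoxin-thioredoxin reductase passes these electrons to thioredoxins, small proteins that reduce disulfide bonds in other proteins. Peroxiredoxins take electrons from thioredoxins to reduce peroxides. In the ascorbate-glutathione cycle, ascorbate peroxidase reduces hydrogen peroxide with ascorbate, monodehydroascorbate reductase and dehydroascorbate reductase regenerate ascorbate, and glutathione reductase restores reduced glutathione. Glutaredoxins and glutathione S-transferases use glutathione, and class III peroxidases are secreted enzymes that act largely in the cell wall.

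The libraries themselves differed in ways that touch every value below. Deposited FPKM summed over all transcripts was between 1096069 and 1115393 in the control leaves, between 1088388 and 1119080 in the ST leaves and between 915463 and 1038379 in the LT leaves. Over the protein-coding genes alone it was between 441417 and 458362 in control, between 443078 and 462244 in ST and between 462460 and 472614 in LT leaves. Rescaling to the same total FPKM, used below, takes the total over all transcripts and so raises these genes further in LT leaves. The median gene was 0.11 higher on the log2 scale in ST than in control leaves and 0.26 higher in LT than in control leaves, so a change is also given relative to this median where it matters. Control replicate 1 stood apart from the other controls, at 1.07 on the first principal component against -55.8 and -71.9, while the ST libraries lay between -20.3 and 3.22 and the LT libraries between 22.8 and 63.5. Chlorophyll-binding and Rubisco small subunit genes, which define leaf mesophyll, were abundant in all libraries, whereas the 4 genes of the root list summed to at most 4.41 FPKM and the 2 genes of the vessel list to at most 0.53.

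The redox genes spanned a wide range of levels. Over the 9 libraries, 9 of the 73 had a mean over 100 FPKM, 37 between 10 and 100, 15 between 1 and 10 and 12 at 1 or less. The most abundant was the thioredoxin M-type gene LOC104905713, with 20.7% of the summed FPKM of all 73. By the type given in the product name, 14 genes encode forms of the plastid. Among them are thioredoxins of the M, F and Y types and the peroxiredoxins BAS1, Q and 2E. For the other 59 the type set another place or none. Testing required that the mean of any group exceed 0.5 FPKM, which held for 66 of the 73. The 7 others were an L-ascorbate peroxidase 3 (LOC104895172), an L-ascorbate peroxidase 2 (LOC104908898), the glutathione S-transferases T1 (LOC104892286) and T3-like (LOC104908906), the thioredoxin-like protein YLS8 (LOC104895744), and an L-ascorbate oxidase homolog (LOC104895595) and a cytochrome c peroxidase (LOC104885980) that were listed at 0 in all libraries.

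After 7 days, the 3 plastid peroxiredoxins and 4 of the 7 plastid thioredoxins had fallen from their control levels, and a smaller group that included thioredoxin M3, monothiol glutaredoxin-S17 and a glutathione reductase had risen. In LT against control leaves, 14 of the 66 tested genes fell and 6 rose (limma on log2(FPKM + 1), adjusted p under 0.05 over 14491 genes). Of all genes tested, 7.23% fell and 31.1% rose, and of those with a product name 9.68% fell and 27.2% rose. The median log2 change of the redox genes was 0.01 against 0.26 for all genes, and 48 of the 66 lay below the median of all genes. At an unadjusted p under 0.05, 18 were lower and 11 higher (9.79% and 40.7% of all genes). The LT and control values did not overlap for 21 genes that were lower and 12 that were higher, where 9.85% of all genes were lower and 38% higher in this way. The balance moved with the scaling, since median-ratio scaling gave 26 that fell and 4 that rose (12.8% and 10% of all genes), while rescaling every library to the same total FPKM gave 9 that fell and 13 that rose of 67 tested (5.31% and 45.1%). The 14 became 9 without control replicate 2, 6 without control replicate 3 and 7 without long-term replicate 2, where 4.51%, 3.9% and 4.12% of all genes fell.

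**Figure D1:**
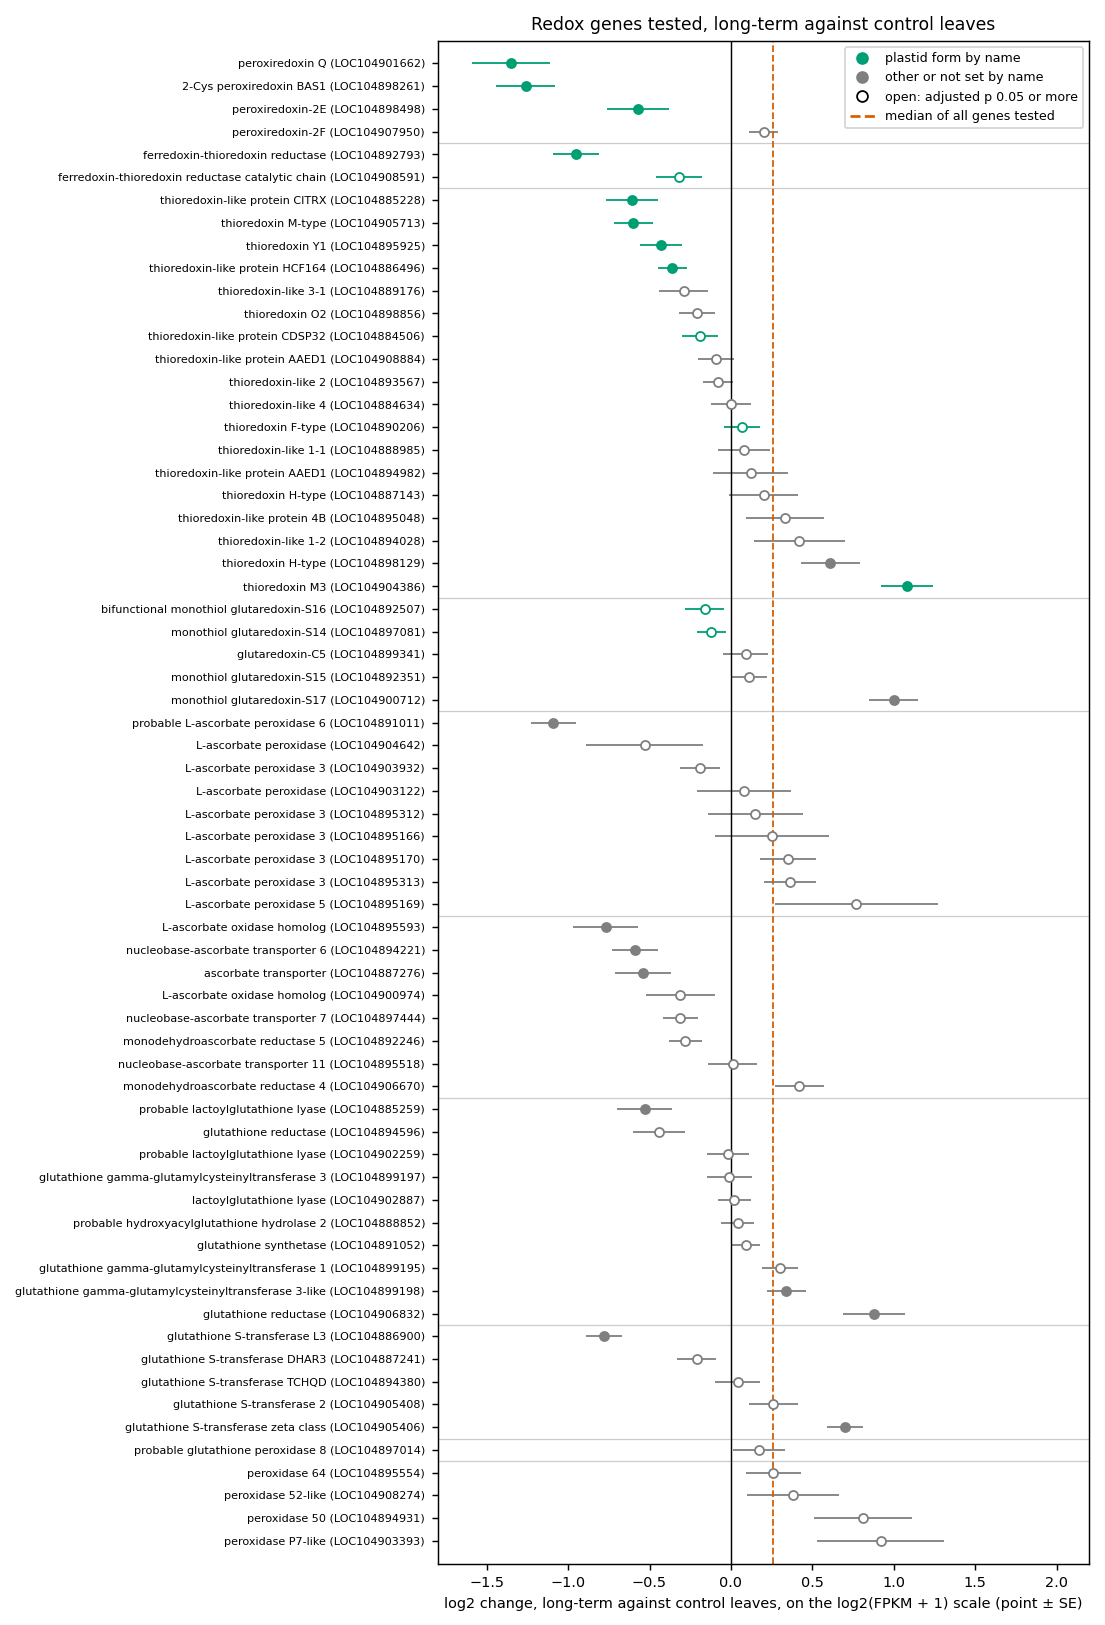
Log2 change of each of the 66 tested redox genes in long-term against control leaves, on the log2(FPKM + 1) scale, as points with standard errors, 1 row per gene, grouped by role. Filled points passed an adjusted p of 0.05, green marks plastid forms by name, and the dashed line is the median of all genes tested at 0.26. The 14 genes that fell lie left of 0, the lowest being peroxiredoxin Q at -1.35, and the highest is thioredoxin M3 at 1.08.

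Plastid forms were 8 of the 14 genes that fell, and 11 of 26 under median-ratio scaling. In that fit 11 of the 14 plastid genes and 15 of the 52 others fell, beside 12.8% of all genes. Of the 14 plastid genes, all of which were tested, 8 fell and 1 rose, with a median log2 change of -0.39, and 13 lay below the median of all genes. Of the 52 other tested genes, 6 fell and 5 rose, with a median of 0.09, where 7.23% of all genes fell and 31.1% rose. This split was read from type names, such as BAS1 or glutaredoxin-S14, and such names do not state a place. With 7 more genes assigned to the plastid from the Arabidopsis gene of the same name, a choice made after seeing the data, 8 of 21 fell and 1 rose, against 6 and 5 of 45. The plastid genes that fell numbered 5 under the same total FPKM, beside 4 of 53 others (5.31% of all genes). They numbered 4 both without control replicate 3 and without long-term replicate 2, beside 2 and 3 of 52 others (3.9% and 4.12%).

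Summed over the 14 plastid genes, FPKM was 2810, 3030 and 3330 in the control leaves, 2690, 2840 and 2470 in the ST leaves and 2330, 2080 and 1980 in the LT leaves. The LT libraries all lay below the control and ST libraries, and their mean was 69.7% of the control mean. Such a sum follows its most abundant genes. Thioredoxin M-type held 34.4% of it over the 9 libraries and fell, as did the abundant BAS1, while the abundant thioredoxin F-type did not pass. The other 59 genes summed to 1570, 1760 and 1660 in control, 1740, 1710 and 1870 in ST and 1720, 1740 and 1810 in LT leaves. Their LT mean was 106% of the control mean, with overlapping values. In the same libraries the 15 mesophyll markers summed to between 34000 and 45200 FPKM in control, between 20800 and 29300 in ST and between 16100 and 25700 in LT leaves. Of the 15, 9 fell in LT leaves and none rose (7.23% and 31.1% of all genes). Under median-ratio scaling 13 fell (12.8%), and under the same total FPKM 7 fell (5.31%). Of the senescence list, 2 of 3 genes rose and 1 fell, the same as under both scalings. Its sum went from between 83.8 and 90.6 FPKM in control to between 109 and 126 in LT leaves. Of 4 tested epidermis genes, 2 rose and 1 fell, against 1 and 1 under median-ratio scaling and 2 and 1 under the same total FPKM. The sum of that list of 7 was between 35.2 and 46.8 in control and between 54 and 70 in LT leaves. Of 21 tested dividing cell genes, 2 rose and 1 fell, against 1 and 5 under median-ratio scaling and 4 and 0 under the same total FPKM. Of all genes, 31.1% rose and 7.23% fell. These shares were 10% and 12.8% under median-ratio scaling and 45.1% and 5.31% under the same total FPKM. The part of these lists in the fall of the plastid redox genes was not tested, and fewer cells of a type cannot be told apart from less RNA per cell.

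**Figure D2:**
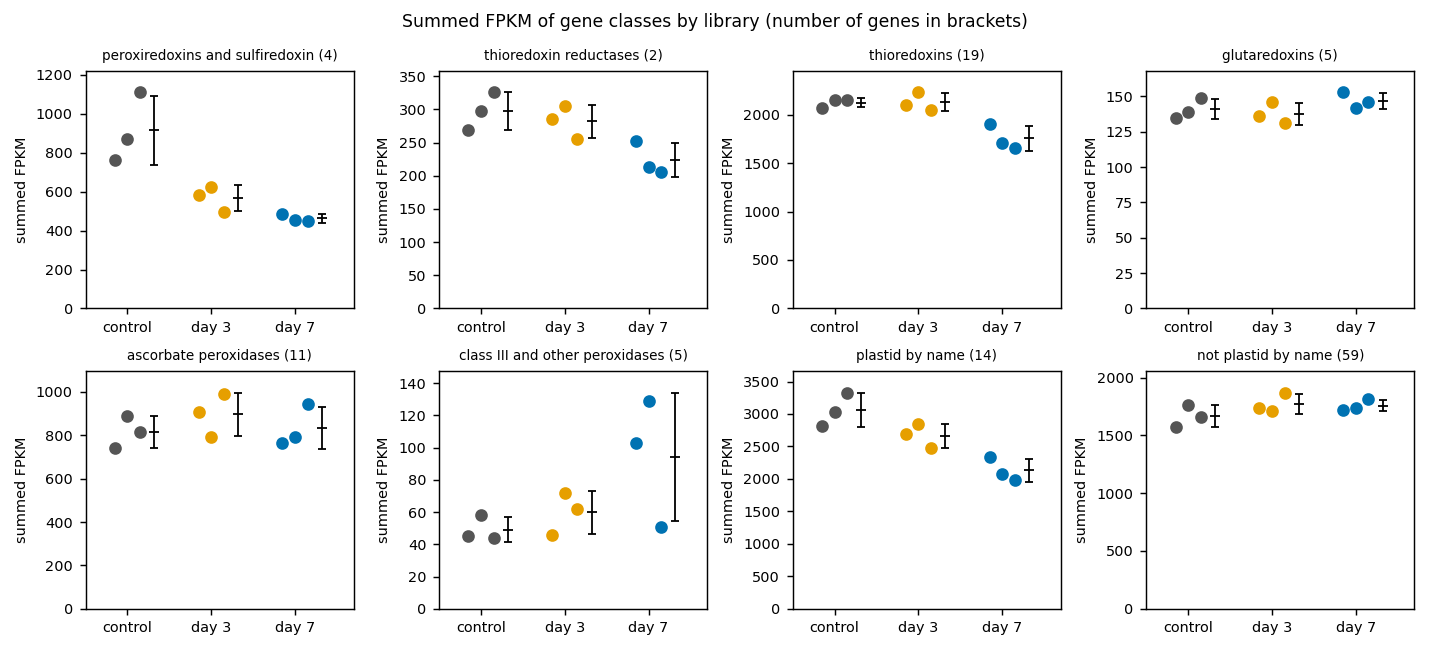
Summed FPKM of gene classes in each library (y axis, FPKM, starting at 0) for control, day 3 (short-term) and day 7 (long-term) leaves, with the mean and SD of 3 libraries beside the points. The peroxiredoxin sum went from between 760 and 1110 in control leaves to between 447 and 487 in long-term leaves, and the sum of the 14 plastid genes from between 2810 and 3330 to between 1980 and 2330, while ascorbate peroxidase sums overlapped between the groups.

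All 3 plastid peroxiredoxins fell in LT leaves, where 7.23% of all genes fell, and the mitochondrial one did not. The 2-Cys peroxiredoxin BAS1 gene (LOC104898261), which encodes the abundant chloroplast peroxidase that thioredoxins and NADPH-thioredoxin reductase C reduce in Arabidopsis, had 487, 595 and 744 FPKM in the control leaves, 343, 385 and 278 in the ST leaves and 265, 240 and 247 in the LT leaves. Every treated library was below every control library, and the LT libraries were the lowest. The control mean of 609 ± 129 (SD, n = 3) was 2.43 times the LT mean of 250 ± 13.4, a log2 change of -1.26 ± 0.18 (SE) with an adjusted p of 0.0043 in limma. Relative to the median gene the change was -1.52. The table places this gene on the minus strand of NC_025818.2 from base 2448827 to base 2453333, in coordinates whose genome build the sources used here do not give.

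Peroxiredoxin Q (LOC104901662), a chloroplast peroxiredoxin that takes electrons from thioredoxins in Arabidopsis, had 123, 120 and 210 FPKM in control leaves, 88.7, 85.8 and 71.6 in ST leaves and 65.3, 62.2 and 44.9 in LT leaves. The 3 groups did not overlap, and control replicate 3 was well above its 2 companions. Its log2 change in LT leaves was -1.35 ± 0.24 with an adjusted p of 0.00667 in limma, and the control mean was 2.63 times the LT mean. Peroxiredoxin-2E (LOC104898498), a form of the chloroplast stroma, went from 37.4, 46.8 and 48.2 FPKM in control to 32, 38.8 and 22.9 in ST and 30.1, 30.1 and 27.7 in LT leaves. ST and control values overlapped and LT and control values did not. Its adjusted p of 0.041 (log2 change -0.57 ± 0.19, limma) became 0.105 under the same total FPKM, and between 0.0608 and 0.126 when control replicate 2 or 3, short-term replicate 1 or any LT replicate was left out. With the replicate number as a block it was 0.0661, and with no filter on low values 0.0513.

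Peroxiredoxin-2F (LOC104907950), the mitochondrial form, was nearly level, with 113, 109 and 105 FPKM in control leaves, 119, 114 and 122 in ST leaves and 126, 122 and 128 in LT leaves. All treated libraries were above all controls, but the log2 change of 0.20 ± 0.09 in LT leaves did not pass (adjusted p = 0.0891, limma) and lay 0.06 below the median of all genes, although it passed upwards under the same total FPKM (adjusted p = 0.0138). Because BAS1 held 61.5% of the summed FPKM of the 4 peroxiredoxins, the class as a whole stood at 50.7% of its control mean in LT leaves.

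**Figure D3:**
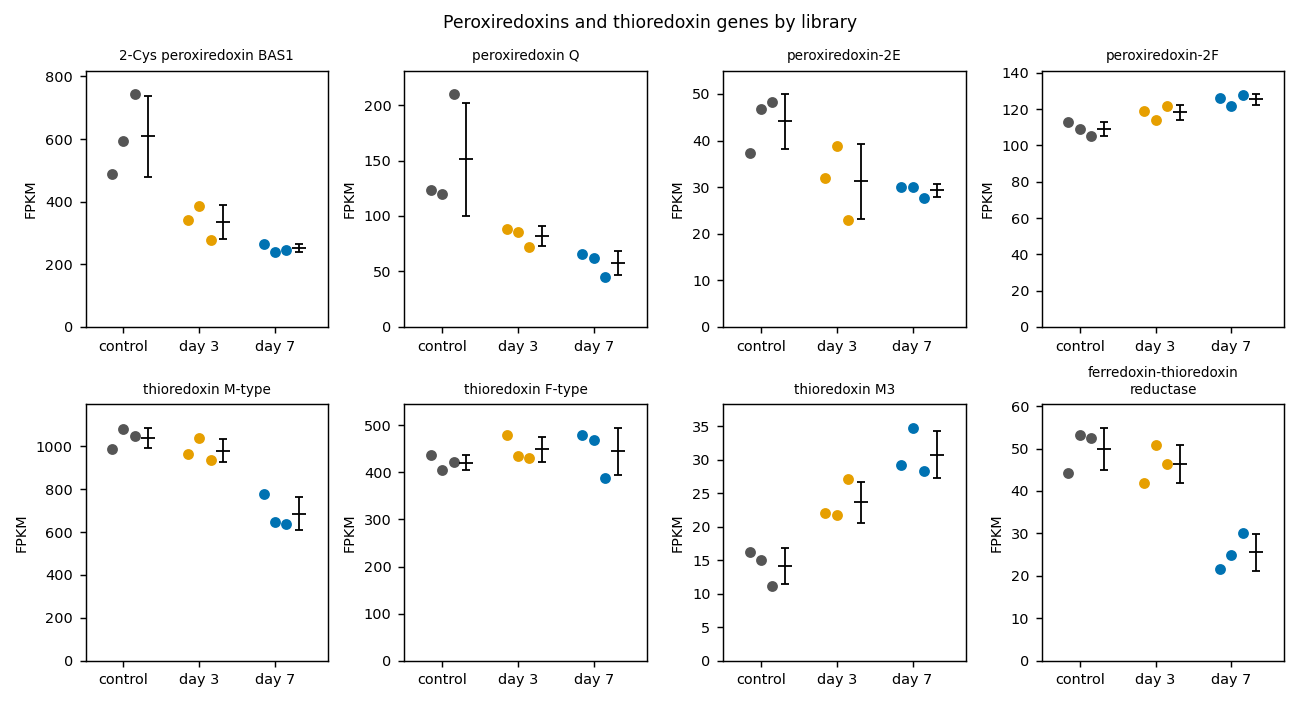
FPKM in each library (y axes start at 0) of 4 peroxiredoxin genes, 3 thioredoxin genes and ferredoxin-thioredoxin reductase in control, day 3 (short-term) and day 7 (long-term) leaves, with mean and SD of 3 libraries. Peroxiredoxins BAS1 and Q are already lower at day 3, thioredoxin M-type and ferredoxin-thioredoxin reductase have day 3 values that overlap the controls and lower values at day 7, and thioredoxin M3 is higher at both times.

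The enzyme that feeds electrons to plastid thioredoxins is made of a variable and a catalytic subunit, and the table holds a gene named for the catalytic chain and another named only for the enzyme. The latter, LOC104892793, had 44.3, 53.1 and 52.5 FPKM in control leaves, 41.8, 50.8 and 46.3 in ST leaves and 21.6, 24.9 and 30.1 in LT leaves. ST values overlapped the controls, and all LT values were lower than both. It fell by 0.95 ± 0.14 on the log2 scale in LT leaves (adjusted p = 0.00489, limma), from a mean of 50 ± 4.91 to 25.5 ± 4.28 FPKM. The catalytic chain gene (LOC104908591) had 224, 244 and 274 FPKM in control, 243, 254 and 210 in ST and 232, 188 and 176 in LT leaves. These values overlapped, and its log2 change of -0.32 ± 0.14 did not pass (adjusted p = 0.0988, limma), while it passed under median-ratio scaling (0.0295).

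Among 18 tested thioredoxin and thioredoxin-like genes (of 19), 4 fell and 2 rose in LT leaves (7.23% and 31.1% of all genes). Under median-ratio scaling 9 fell and 1 rose (12.8% and 10%), and under the same total FPKM 2 and 2 (5.31% and 45.1%). Thioredoxin M-type (LOC104905713), a regulator of chloroplast enzymes, had 988, 1080 and 1050 FPKM in control leaves, 966, 1040 and 934 in ST leaves and 776, 645 and 638 in LT leaves. The ST libraries overlapped the controls, and the LT libraries were lower than both. The log2 change in LT leaves was -0.60 ± 0.12 (adjusted p = 0.00874, limma), or -0.86 relative to the median gene. Thioredoxin F-type (LOC104890206), which activates Calvin cycle enzymes in the light, had 436, 404 and 422 FPKM in control, 480, 435 and 431 in ST and 479, 468 and 388 in LT leaves. Its groups overlapped, with a log2 change of 0.07 ± 0.11 (adjusted p = 0.62, limma) that lay 0.19 below the median gene.

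The other plastid thioredoxins that fell were smaller in level or in change. The thioredoxin-like protein CITRX gene (LOC104885228), whose Arabidopsis relative is a part of the plastid transcription machinery, had 4.13, 5.27 and 5.77 FPKM in control, 5.1, 6.64 and 4.68 in ST and 3.54, 2.52 and 2.79 in LT leaves. Its LT values lay below all others, with a log2 change of -0.61 ± 0.16 and an adjusted p of 0.0212 in limma, which became 0.0652 without control replicate 2, 0.0784 without control replicate 3, 0.0749 without long-term replicate 2 and 0.0501 without long-term replicate 3. A replicate block made it 0.0556. Thioredoxin Y1 (LOC104895925), of a type that reduces antioxidant enzymes such as peroxiredoxin Q in Arabidopsis, had means of 82.2 ± 7.69, 71.2 ± 11.5 and 60.8 ± 0.835 FPKM in control, ST and LT leaves. Its adjusted p of 0.0332 (log2 change -0.43, limma) became 0.128 under the same total FPKM, 0.061 with a replicate block and between 0.0546 and 0.106 without control replicate 2 or 3 or any LT replicate. HCF164 (LOC104886496), a thioredoxin-like protein of the thylakoid needed for cytochrome b6f assembly in Arabidopsis, had 62.5, 56.4 and 65.1 FPKM in control, 55, 53.5 and 54.7 in ST and 47.9, 47.2 and 47.8 in LT leaves. The 3 groups did not overlap, and its adjusted p of 0.0177 (log2 change -0.36 ± 0.09, limma) became 0.132 under the same total FPKM, 0.0659 without control replicate 3 and 0.0554 without long-term replicate 2. With only the 2 groups compared this p was 0.059, and with a replicate block 0.0516. The drought-induced stress protein CDSP32 (LOC104884506) did not pass (adjusted p = 0.186, limma, and 0.0347 under median-ratio scaling), with means of 230, 255 and 201 FPKM in the same order.

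Thioredoxin M3 (LOC104904386) was the exception among the plastid forms. It had 16.3, 15 and 11.1 FPKM in control leaves, 22, 21.8 and 27.2 in ST leaves and 29.3, 34.8 and 28.3 in LT leaves. The 3 groups stepped up without overlap. The LT mean was 2.18 times the control mean, with a log2 change of 1.08 ± 0.16 (adjusted p = 0.00473, limma), and 0.82 relative to the median gene. This gene lies on the minus strand of NC_025820.2, from base 38243961 to base 38249547, and has 2 transcripts. The transcript of 846 nt held 68.8% of its FPKM in control, 79.5% in ST and 84.2% in LT leaves. An antisense lncRNA overlaps the gene, as others do at ferredoxin-thioredoxin reductase LOC104892793, HCF164 and DHAR3. The one at thioredoxin M3 had 0.795 FPKM in control replicate 2, 0.0299 in control replicate 3 and 0 in the other libraries.

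Outside the plastid forms, a thioredoxin H-type gene (LOC104898129), of the type found in the cytosol, had 13, 9.33 and 7.19 FPKM in control, 10.3, 9.88 and 11.3 in ST and 13.7, 14.9 and 16.8 in LT leaves. Control replicate 1 lay close to the LT libraries. The log2 change of 0.61 ± 0.18 passed (adjusted p = 0.0327, limma), but the call was lost under median-ratio scaling (adjusted p = 0.185) and with p between 0.0506 and 0.0974 without control replicate 2 or 3, short-term replicate 1 or long-term replicate 2 or 3. A replicate block (adjusted p = 0.0714, limma) and a fit of only the 2 groups compared (0.0739) lost it too. The 10 tested thioredoxin-like and other thioredoxin genes not named so far had log2 changes between -0.29 and 0.42 in LT leaves and did not pass. Under median-ratio scaling 4 of them fell (12.8% of all genes).

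Among the 5 glutaredoxins, 1 rose and none fell in LT leaves (31.1% and 7.23% of all genes). Under median-ratio scaling 1 rose and 1 fell (10% and 12.8%), and under the same total FPKM 1 and 0 (45.1% and 5.31%). Monothiol glutaredoxin-S17 (LOC104900712), which works in the cytosol and nucleus in Arabidopsis, had 14.5, 14.1 and 9.54 FPKM in control leaves, 16.3, 17.7 and 18.5 in ST leaves and 25, 28 and 25.6 in LT leaves. The 3 groups did not overlap. Its LT mean of 26.2 ± 1.58 was 2.06 times the control mean of 12.7 ± 2.77, a log2 change of 1.00 ± 0.15 (adjusted p = 0.00499, limma) and of 0.74 relative to the median gene. The most abundant glutaredoxin, the plastid form S14 (LOC104897081), had means of 58.7, 55.8 and 53.7 FPKM in control, ST and LT leaves. That of the bifunctional plastid form S16 (LOC104892507) went through 43.6, 40.8 and 38.8 FPKM, and neither passed (adjusted p = 0.312 and 0.313, limma), although S14 fell under median-ratio scaling (0.0379). Glutaredoxin-C5 (LOC104899341) had 14.2, 11.2 and 15.1 FPKM on average, with a log2 change of 0.09 in LT leaves.

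Of 9 tested ascorbate peroxidases (of 11), 1 fell and none rose in LT leaves (7.23% and 31.1% of all genes). Only 1 reached an unadjusted p under 0.05, and it was lower (9.79% of all genes). Under median-ratio scaling 2 fell (12.8%), and under the same total FPKM 2 rose and 1 fell (45.1% and 5.31%). The gene that fell, probable L-ascorbate peroxidase 6 (LOC104891011), had 60.8, 70.4 and 81.3 FPKM in control leaves, 53.1, 54.1 and 48.8 in ST leaves and 29.1, 31.8 and 37.2 in LT leaves. The groups stepped down without overlap. Its log2 change in LT leaves was -1.09 ± 0.14 (adjusted p = 0.00363, limma), or -1.35 relative to the median gene, and the control mean was 2.17 times the LT mean. Its 2 transcripts kept similar shares, the one of 1623 nt holding 66% of the FPKM in control, 63.4% in ST and 67.9% in LT leaves.

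The levels of the class came mainly from genes named L-ascorbate peroxidase 3, whose Arabidopsis namesake sits in the peroxisome membrane. Together with a gene named L-ascorbate peroxidase 5, 5 of them stand in a row of 6 genes on the plus strand of NC_025817.2, between bases 3853432 and 3931692, with gaps of 1405 to 11648 bp. Neighbouring genes of one name can share reads, so the split of FPKM between them is uncertain. The first gene of the row, LOC104895166, had 110, 218 and 245 FPKM in control, 251, 135 and 219 in ST and 207, 169 and 284 in LT leaves, a spread within each group that was wider than any difference between the groups (log2 change 0.25 ± 0.35 in LT leaves, adjusted p = 0.584, limma). LOC104895313, had 185, 179 and 126 FPKM in control, 182, 194 and 219 in ST and 193, 223 and 208 in LT leaves. Its LT values were all above the controls, but the log2 change of 0.36 ± 0.16 lay only 0.10 above the median gene and did not pass (adjusted p = 0.1, limma). Beside it, LOC104895170 had 48, 62.5 and 45.5 FPKM in control, 87.7, 68.7 and 94.1 in ST and 69.4, 58.2 and 71.4 in LT leaves. It was highest at day 3, where all its values were above the controls (log2 change 0.67 ± 0.17, adjusted p = 0.0874, limma).

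Summed over the row of 6, which lessens the effect of reads shared among its copies, FPKM was 366, 505 and 466 in control, 561, 429 and 579 in ST and 513, 485 and 614 in LT leaves. The groups overlapped. The ends of the range within the row were far apart, since LOC104895169 had at most 2.66 FPKM and LOC104895172 at most 0.577 in any library. Beyond the row, L-ascorbate peroxidase 3 LOC104903932 had means of 156, 171 and 137 FPKM, and its LT values lay below the ST values but overlapped the controls (adjusted p = 0.212 for LT against control leaves, limma, and 0.0267 under median-ratio scaling). The L-ascorbate peroxidase LOC104904642 had means of 82.6, 70.9 and 61.5 FPKM with overlapping groups (adjusted p = 0.256 in LT leaves, limma).

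**Figure D4:**
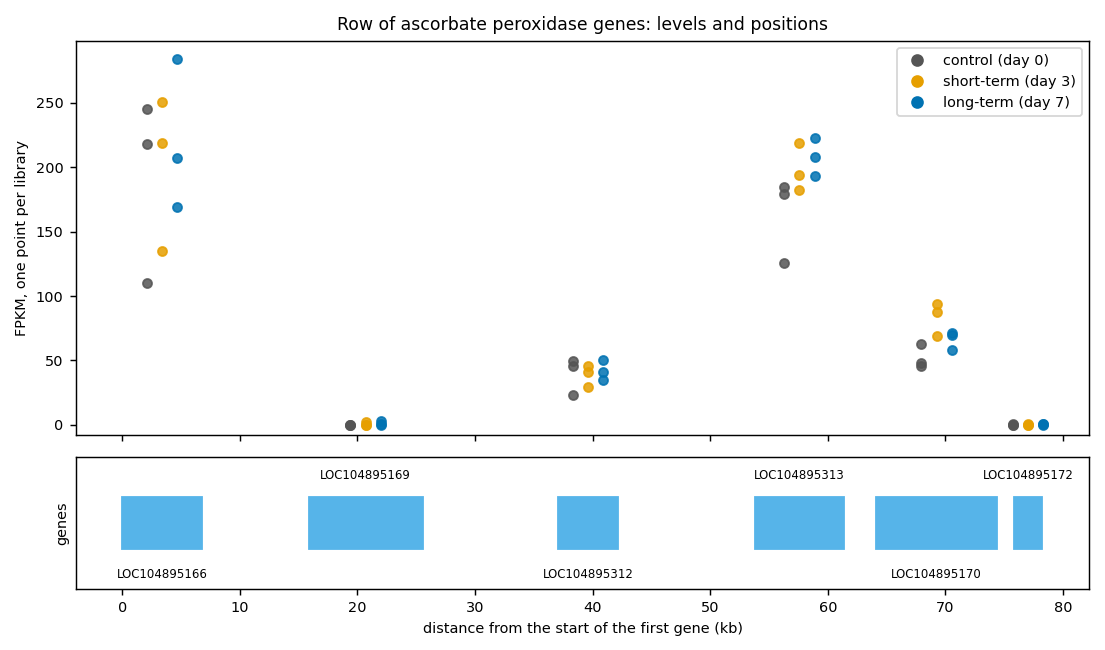
Top, FPKM of the 6 ascorbate peroxidase genes that stand in a row, 1 point per library, for control, short-term and long-term leaves (y axis, linear, FPKM). Bottom, the genes drawn to scale by distance from the start of the first gene (x axis, kb), over 78.3 kb. LOC104895166 and LOC104895313 were the most abundant, LOC104895169 and LOC104895172 had at most 2.66 FPKM, and LOC104895170 was highest at day 3.

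Genes for recycling, oxidising and moving ascorbate leaned lower. Of 8 tested (of 9), 3 fell and none rose in LT leaves (7.23% and 31.1% of all genes). At an unadjusted p under 0.05, 5 were lower and 1 higher (9.79% and 40.7%). Under median-ratio scaling 5 fell (12.8%), and under the same total FPKM 2 fell and 1 rose (5.31% and 45.1%). The L-ascorbate oxidase homolog LOC104895593, named for its likeness to the secreted enzyme that oxidises ascorbate, had 6.85, 6.26 and 8.92 FPKM in control, 3.32, 4.4 and 3.88 in ST and 3.99, 5.13 and 2.71 in LT leaves. ST and LT values lay at one level below all controls. It fell by 0.77 ± 0.20 on the log2 scale in LT leaves (adjusted p = 0.0194, limma, and 0.072 without control replicate 3). Its 2 transcripts, of 2063 and 2053 nt, differed, since the longer one held 34.5% of the FPKM in control, 73.1% in ST and 85.5% in LT leaves. The longer transcript had 3.19, 2.16 and 2.24 FPKM in control and 3.13, 4.27 and 2.71 in LT leaves, while the shorter one had 3.66, 4.11 and 6.67 in control and 0.855, 0.861 and 0 in LT leaves. How reads were divided between transcripts this similar rests on the authors' assembly, and the shift was not tested.

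Nucleobase-ascorbate transporter 6 (LOC104894221), of a family of membrane carriers, had 20.2, 24.7 and 25.9 FPKM in control, 19, 17.7 and 18.7 in ST and 18.2, 13.6 and 14.4 in LT leaves. Every treated library was below every control library. Its log2 change of -0.59 ± 0.14 passed in LT leaves (adjusted p = 0.0139, limma, and 0.0536 without control replicate 3 and 0.053 without long-term replicate 2). The gene named ascorbate transporter (LOC104887276) had 15.3, 20.6 and 19 FPKM in control, 13.2, 21.3 and 16.8 in ST and 12.6, 12.1 and 11.9 in LT leaves. Its LT values lay close together below the controls, with a log2 change of -0.54 ± 0.17 and an adjusted p of 0.039 in limma, which became 0.0916 under the same total FPKM and between 0.059 and 0.119 without control replicate 2 or 3, short-term replicate 3 or any LT replicate.

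The 2 monodehydroascorbate reductases had opposite signs and neither passed, but number 4 rose under the same total FPKM (adjusted p = 0.0162, limma) and number 5 fell under median-ratio scaling (0.0161). Monodehydroascorbate reductase 4 (LOC104906670) had 23.8, 28.8 and 22.3 FPKM in control, 35.3, 29.4 and 36.1 in ST and 39, 33.9 and 28.3 in LT leaves, with a log2 change of 0.42 ± 0.15 in LT leaves (adjusted p = 0.0574, limma). Monodehydroascorbate reductase 5 (LOC104892246) had 11.9, 13.1 and 13.2 FPKM in control, 8.85, 9.59 and 8.63 in ST and 9.21, 10.5 and 11.3 in LT leaves. Its treated values were all below the controls, with log2 changes of -0.46 ± 0.10 in ST (adjusted p = 0.0763) and -0.28 ± 0.10 in LT leaves (adjusted p = 0.0588, limma). DHAR3 (LOC104887241), which in Arabidopsis is the plastid dehydroascorbate reductase, had means of 98.1, 92.2 and 84.9 FPKM, and its log2 change of -0.21 ± 0.12 in LT leaves did not pass (adjusted p = 0.185, limma, and 0.0273 under median-ratio scaling).

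The 2 glutathione reductase genes differed in sign, and 1 of them passed. LOC104906832 had 26.1, 19.9 and 19 FPKM in control leaves, 23.8, 23.8 and 28.4 in ST leaves and 30.4, 44.7 and 48.4 in LT leaves. All LT libraries were higher than all others, although long-term replicate 1 was near the highest ST library. It rose in LT leaves with a log2 change of 0.88 ± 0.19 (adjusted p = 0.012, limma, and 0.0498 under median-ratio scaling), its LT mean being 1.9 times the control mean. The other, LOC104894596, was named after its values were seen and had 12, 15.5 and 16.7 FPKM in control, 15, 15.7 and 11.1 in ST and 10.9, 10.2 and 10.3 in LT leaves. Its LT values lay below all others, and its log2 change of -0.44 ± 0.16 did not pass (adjusted p = 0.0538, limma), though it did under median-ratio scaling (0.028). The product names, which end at the first comma, do not say which of the 2 is the plastid enzyme, and the difference between their changes was not tested.

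The class for making, reducing and transferring glutathione held 10 tested genes, of which 2 rose and 1 fell in LT leaves (31.1% and 7.23% of all genes). Under median-ratio scaling 1 rose and 2 fell (10% and 12.8%), and under the same total FPKM 3 and 0 (45.1% and 5.31%). Beside the reductase, glutathione gamma-glutamylcysteinyltransferase 3-like (LOC104899198), the enzyme that builds metal-binding phytochelatins from glutathione, had 2.31, 1.77 and 1.89 FPKM in control, 2.57, 2.03 and 2.57 in ST and 2.81, 2.59 and 2.98 in LT leaves. LT values lay above the controls. The log2 change of 0.34 ± 0.12 had an adjusted p of 0.0462 in limma, which was 0.427 under median-ratio scaling and between 0.0633 and 0.133 without control replicate 2 or 3, short-term replicate 1 or 3 or any LT replicate. It was 0.077 with only the 2 groups compared, and 0.0643 both with no filter on low values and with a replicate block. The gene that fell, a probable lactoylglutathione lyase (LOC104885259), belongs to the glyoxalase route that detoxifies methylglyoxal with glutathione, and had 8.72, 12.1 and 12.6 FPKM in control, 8.42, 7.21 and 7.56 in ST and 8.53, 8.05 and 5.75 in LT leaves. Its highest LT value was just under its lowest control value, and the adjusted p of 0.0424 (log2 change -0.53 ± 0.17, limma) was between 0.0583 and 0.136 without control replicate 2 or 3, any ST replicate or long-term replicate 2 or 3. The call was also lost under the same total FPKM (0.108), with no filter on low values (0.0561), with only the 2 groups compared (0.0877) and with a replicate block (0.0889). The more abundant glyoxalase genes were level, with log2 changes in LT leaves of -0.02 for the lyase LOC104902259, 0.02 for the lyase LOC104902887 and 0.04 for the hydrolase LOC104888852.

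Of 5 tested glutathione S-transferases (of 7), 1 rose and 1 fell in LT leaves (31.1% and 7.23% of all genes). Under median-ratio scaling 1 rose and 2 fell (10% and 12.8%), and under the same total FPKM 1 and 1 (45.1% and 5.31%). Glutathione S-transferase zeta class (LOC104905406), the maleylacetoacetate isomerase of tyrosine breakdown, had 5.72, 5.7 and 5.49 FPKM in control leaves, 10.2, 8.98 and 9.72 in ST leaves and 11.1, 8.42 and 9.93 in LT leaves. The controls were nearly identical, and both treated groups lay above them at about the same level. Its log2 change was 0.68 ± 0.11 in ST leaves (adjusted p = 0.0615) and 0.70 ± 0.11 in LT leaves (adjusted p = 0.00562, limma), the LT mean being 1.74 times the control mean. Its neighbour glutathione S-transferase 2 (LOC104905408), 20782 bp away on the same strand, had 0.868, 1.49 and 1.37 FPKM in control, 2.22, 2.05 and 3.12 in ST and 1.67, 1.78 and 1.57 in LT leaves, with a log2 change of 0.62 ± 0.15 in ST leaves that did not pass (adjusted p = 0.0874, limma).

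Glutathione S-transferase L3 (LOC104886900), of the lambda class, had 8.86, 9.45 and 11.3 FPKM in control, 8.66, 8.2 and 7.52 in ST and 5.49, 5.24 and 5.13 in LT leaves. The groups stepped down without overlap. It fell by 0.78 ± 0.11 on the log2 scale in LT leaves (adjusted p = 0.00431, limma), and the control mean was 1.87 times the LT mean. Glutathione S-transferase TCHQD (LOC104894380) had means of 3.04, 3.35 and 3.17 FPKM in control, ST and LT leaves. Its log2 change of 0.04 ± 0.14 in LT leaves did not pass (adjusted p = 0.809, limma). The only tested glutathione peroxidase (LOC104897014), a probable GPX8 of a plant family that uses thioredoxin more than glutathione, had means of 2.26, 2.82 and 2.72 FPKM. All its ST values lay just above the controls, and its LT values overlapped them and did not pass (adjusted p = 0.406, limma).

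**Figure D5:**
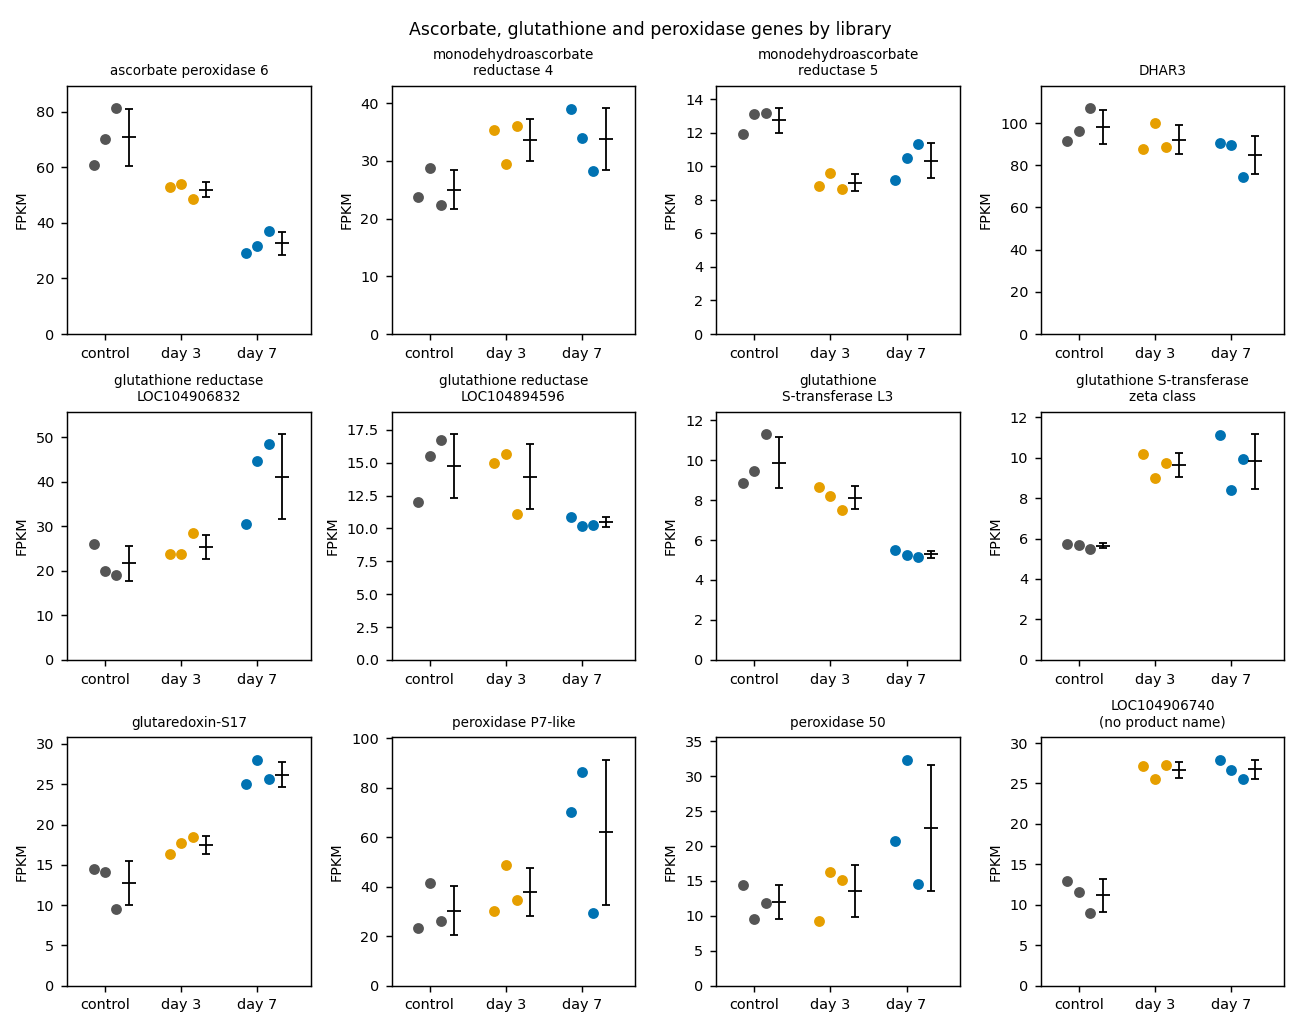
FPKM in each library (y axes start at 0) of ascorbate, glutathione, glutaredoxin and class III peroxidase genes and of LOC104906740 in control, day 3 (short-term) and day 7 (long-term) leaves, with mean and SD of 3 libraries. Ascorbate peroxidase 6 and glutathione S-transferase L3 step down, glutaredoxin-S17 steps up, the 2 glutathione reductases diverge at day 7, and the class III peroxidases spread widely among the day 7 libraries.

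The study assayed peroxidase activity in leaves of the same treatments, which makes the class III peroxidases of interest. In LT leaves 0 of the 4 tested passed with limma, and 2 were higher at an unadjusted p under 0.05 (40.7% of all genes). Under the same total FPKM 2 rose (45.1% of all genes). Peroxidase P7-like (LOC104903393) had 23.5, 41.6 and 26 FPKM in control, 30.4, 49 and 34.7 in ST and 70.1, 86.4 and 29.6 in LT leaves. Long-term replicates 1 and 2 were above all other libraries, whereas replicate 3 was at the control level, and the log2 change of 0.92 ± 0.39 did not pass (adjusted p = 0.0906, limma). Peroxidase 50 (LOC104894931) had 14.4, 9.5 and 11.9 FPKM in control, 9.24, 16.3 and 15.1 in ST and 20.7, 32.3 and 14.6 in LT leaves. Its LT values were above the controls, the lowest by a narrow margin (log2 change 0.81 ± 0.30, adjusted p = 0.0609, limma). Peroxidase 52-like (LOC104908274) had LT values of 10.9, 8.53 and 5.04 FPKM against 6.25, 5.97 and 5.09 in control, and peroxidase 64 (LOC104895554) stayed at or below 1.58 FPKM in all libraries.

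The gene that the study names as encoding peroxidase, LOC104906740, has no product name in the table and is therefore not among the 73. It had 13, 11.6 and 8.99 FPKM in control leaves, 27.1, 25.5 and 27.3 in ST leaves and 27.9, 26.7 and 25.6 in LT leaves. Both treated groups lay above the controls at the same level, with log2 changes of 1.19 ± 0.13 in ST leaves (adjusted p = 0.036) and 1.20 ± 0.13 in LT leaves (adjusted p = 0.00218, limma). The ST call was lost, with p between 0.0518 and 0.135, without control replicate 2 or 3, any ST replicate or long-term replicate 1 or 2. It was also lost with a replicate block (adjusted p = 0.107, limma).

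After 3 days, none of the 66 redox genes passed in either direction with limma, where 0.0759% of all genes rose and 0.0276% fell. At an unadjusted p under 0.05, 6 were higher and 8 lower (15.1% and 7.1% of all genes), and array weights, which give less weight to libraries that stand apart, gave 4 that rose and 8 that fell (10.2% and 4.97% of all genes). The median log2 change was 0.02 against 0.11 for all genes. The smallest p among genes that were higher belonged to glutathione S-transferase zeta class (adjusted p = 0.0615), thioredoxin M3 (0.0761), L-ascorbate peroxidase 3 LOC104895170 (0.0874), glutathione S-transferase 2 (0.0874) and glutaredoxin-S17 (0.144). Among those that were lower they belonged to peroxiredoxin BAS1 (log2 change -0.85 ± 0.18, adjusted p = 0.0689), monodehydroascorbate reductase 5 (0.0763), the ascorbate oxidase homolog (0.091), peroxiredoxin Q (log2 change -0.83 ± 0.24, adjusted p = 0.104) and ascorbate peroxidase 6 (0.124). Without control replicate 1, the library that lay nearest to the treated ones, BAS1 passed downwards (adjusted p = 0.0346), and thioredoxin M3 (0.0448) and the zeta class transferase (0.0412) passed upwards, in a fit where 2.37% of all genes rose and 1.23% fell. Without long-term replicate 3 the zeta class transferase alone passed (0.0489), where 0.622% of all genes rose.

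Between LT and ST leaves, 0 redox genes and 0% of all 14491 genes passed in either direction with limma. At an unadjusted p under 0.05, 6 redox genes were higher and 12 lower (22.4% and 5.34% of all genes), and under array weights 6 rose and 8 fell (21.1% and 5.02%). The smallest p among genes that were lower at day 7 belonged to ferredoxin-thioredoxin reductase (log2 change -0.84, adjusted p = 0.059), ascorbate peroxidase 6 (-0.66, 0.0822), glutathione S-transferase L3 (-0.54, 0.0822), thioredoxin M-type (-0.52, 0.0841) and CITRX (-0.71, 0.0846). Glutaredoxin-S17 (0.55, 0.0939) and glutathione reductase LOC104906832 (0.66, 0.0986) were higher. For BAS1 the step from day 3 to day 7 was -0.41 (adjusted p = 0.176, limma). Without long-term replicate 1, 1 redox gene rose and 5 fell (6.89% and 1.85% of all genes). Without control replicate 1, 2 fell (0.496%), and without long-term replicate 3, 1 fell (0.27%).

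The genes that fell in LT leaves reached higher control levels than those that rose. Their control means ran from 5.05 to 1040 FPKM with a median of 47 (14 genes), against a median of 11.3 and a highest value of 21.7 for the 6 that rose and a median of 21.6 for the 46 that did neither. The same control values entered the calls, so a high control value favours a fall and a low one a rise. This difference in level was not tested. The share of all gene FPKM taken by the 73 redox genes was 0.956%, 1.07% and 1.13% in control leaves, 0.999%, 0.984% and 0.971% in ST leaves and 0.856%, 0.822% and 0.82% in LT leaves. The 3 LT shares lay below all others.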

How the data were processed

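The authors extracted total RNA from leaves, depleted ribosomal RNA and prepared strand-specific libraries. Alignment used HISAT2, assembly used StringTie 1.3.1, and the methods name Cuffdiff for expression. The authors deposited FPKM for every transcript in every library. The sources used here do not give the genome build. Without read counts, neither the depth of a library nor the counting error of a low FPKM is known. FPKM was summed per gene, and genes with a group mean over 0.5 were fitted as log2(FPKM + 1), a scale that understates changes of low genes, with limma 3.58.1 in R 4.3.3 (1 mean per group, variance trend, all 9 libraries). P-values were adjusted by the Benjamini-Hochberg method over all genes tested at 0.05. They test the change itself, not the change relative to the median gene.

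Genes were chosen by product name and split into role classes and place by patterns on that name. The members, classes and lists were chosen with earlier results of these data known. The text names, per class, the 4 most abundant members, the up to 4 largest passing changes each way in LT leaves, and the 5 smallest p each way in ST leaves. Control samples are shared by both treatment comparisons. Alternatives covered pseudocount, filter, scaling, groups in the fit, variance trend, replicate block, array weights, repeated transcript identifiers and leaving out each library. The steps were tested on simulated data. Figures were drawn with Python 3.11.15 and matplotlib 3.10.9. Of the 73 genes, 69 were found in the RefSeq gene table of another assembly (EL10.2), from which no coordinates were taken. No sequences are shown.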

Additional observations from a re-analysis of the deposited data

How the results depend on the processing

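Of the 20 genes called in LT against control leaves, 10 kept their call under each of the 20 alternatives, 6 that fell (peroxiredoxins BAS1 and Q, ferredoxin-thioredoxin reductase, thioredoxin M-type, ascorbate peroxidase 6 and glutathione S-transferase L3) and 4 that rose (thioredoxin M3, glutaredoxin-S17, glutathione reductase LOC104906832 and glutathione S-transferase zeta class). No named gene changed direction while called. Of the 20 calls, 10 were kept without control replicate 3, 11 without long-term replicate 2, 15 under the same total FPKM and 18 under median-ratio scaling. A replicate block kept 13, fitting only the 2 groups compared 16, and using no filter on low values 17. Calls kept in the fewest of the 20 alternatives were those of LOC104885259 (9), LOC104899198 (9), peroxiredoxin-2E (11) and thioredoxin H-type (12). Genes that fell in LT leaves numbered 26 under median-ratio scaling and 9 under the same total FPKM, which also gave 13 that rose. Leaving out 1 library gave 6 to 15 that fell and 4 to 7 that rose. In ST against control leaves, array weights gave 4 that rose and 8 that fell, and leaving out 1 library gave 0 to 2 and 0 to 1. Between LT and ST leaves, array weights gave 6 and 8, and leaving out 1 library 0 to 1 and 0 to 5. The same total FPKM gave 3 that rose and 2 that fell of 67 tested, where 12% of all genes rose and 0.702% fell. The causes were not tested.

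Same-numbered libraries did not deviate together (correlations of deviations between -0.615 and 0.351, over 0.1 in 2 of 9 pairs), so replicate numbers were not taken as pairs. With the replicate number as a block, 4 genes rose and 9 fell in LT against control leaves, and 0 passed in the other comparisons. The share of all genes called in that fit was not counted, so these counts cannot be set against it.

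With 3 libraries per group and no read counts, counting error of low genes is unknown, the split of FPKM between near-identical copies is uncertain, and product names cut at a comma leave the place of many enzymes unknown.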

Other observations

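Genes around the same chemistry, taken from lists of product names, moved unevenly in LT against control leaves, where 31.1% of all genes rose and 7.23% fell. Of 6 superoxide dismutase genes (with their copper chaperone), which make the hydrogen peroxide that peroxidases remove, 4 fell and 0 rose (4 and 0 under median-ratio scaling, 3 and 1 under the same total FPKM), and the list summed to between 382 and 518 FPKM in control, between 281 and 318 in ST and between 188 and 203 in LT leaves. The copper-zinc form LOC104902979 had 114, 208 and 257 FPKM in control, 51.7, 26.3 and 25.6 in ST and 19.8, 13.6 and 5.01 in LT leaves, and the iron form LOC104892465 had 118, 97.6 and 98.4 in control, 97.2, 150 and 116 in ST and 33.7, 21.9 and 46.8 in LT leaves. The alternative oxidase list, whose enzymes pass electrons to oxygen without forming peroxide, went the other way, with 2 of 3 rising and 0 falling. Under median-ratio scaling the counts were 2 and 0, and under the same total FPKM 3 and 0. Its sum was between 9.03 and 32 FPKM in control, between 19 and 25.9 in ST and between 31.9 and 66.1 in LT leaves, so control and LT sums overlapped. Ubiquinol oxidase LOC104904018 had 4.11, 2.19 and 1.02 FPKM in control, 4.93, 2.94 and 8.56 in ST and 7.69, 13.7 and 16.2 in LT leaves.

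Of 9 genes for precursors of glutathione, 3 rose, a share near that of all genes, and 2 fell. Under median-ratio scaling 0 rose and 3 fell (10% and 12.8% of all genes), and under the same total FPKM 3 rose and 1 fell (45.1% and 5.31%). Glutamate--cysteine ligase (LOC104907834), the first enzyme of glutathione synthesis, had 14.8, 14.2 and 15.4 FPKM in control and 17.3, 20.2 and 19.9 in LT leaves (adjusted p = 0.0238, limma, and 0.72 under median-ratio scaling), while 5'-adenylylsulfate reductase 1 (LOC104900978), which reduces sulfate for cysteine, had 547, 517 and 403 in control and 190, 219 and 341 in LT leaves. Of 9 genes for NADPH supply, 2 rose and 2 fell (31.1% and 7.23% of all genes). Under median-ratio scaling 0 rose and 4 fell (10% and 12.8%), and under the same total FPKM 3 rose and 1 fell (45.1% and 5.31%). Among sources of superoxide and hydrogen peroxide, 2 of 6 rose, a share near that of all genes, and 0 fell. Under median-ratio scaling 2 rose (10% of all genes), and under the same total FPKM 5 of 5 tested (45.1%). Among them, acyl-coenzyme A oxidase 4 (LOC104892502), of peroxisomal fatty acid oxidation, had 11.4, 9.54 and 8.1 FPKM in control and 17.6, 22.8 and 21.7 in LT leaves.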
